A study of Mus musculus with 9 samples.

Results

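The 34 genes described here carry glucose from its uptake to pyruvate and from pyruvate to lactate or into the mitochondrion, and they were read out by RNA sequencing of mouse duodenal organoids in which a hypoxia-inducible factor had been overexpressed. They were chosen by function, by gene symbol, from the 46517 genes quantified, with earlier results of these data known. They are glucose transporters, the enzymes of every glycolytic step, the bifunctional PFKFB enzymes that set fructose-2,6-bisphosphate, lactate dehydrogenases, lactate transporters, pyruvate dehydrogenase kinases, subunits of the pyruvate dehydrogenase complex and the mitochondrial pyruvate carrier.

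Crypts from the duodenum of wild-type C57BL/6J mice were grown as organoids in Matrigel with L-WRN conditioned medium, which supplies Wnt3a, R-spondin 3 and noggin, at 5% oxygen. Dissociated cells received an adenovirus at 50 particles per cell, and RNA was taken about 72 hours later. The 3 conditions had 3 samples each and were compared, numbered 1, 3 and 4 in the labels. Ad-GFP carries green fluorescent protein and controls for transduction, Ad-hHIF1 carries human HIF1 and Ad-hHIF2 carries human HIF2, both with the prolines altered that oxygen-dependent hydroxylation uses, so that the proteins escape degradation. All groups, controls included, were transduced and kept at the same low oxygen, and no untransduced organoids are among the samples used here. The labels name no mice or cultures behind the sample numbers, so p-values measure the spread between these samples.

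HIFs are transcription factors that bind DNA as a dimer with ARNT and are best known for switching cells toward glycolysis when oxygen is scarce. HIF1 is the form classically tied to the glycolytic genes, among them the glucose transporter Slc2a1, Ldha and the lactate exporter Slc16a3, and to the pyruvate dehydrogenase kinases, which phosphorylate and switch off the complex that turns pyruvate into acetyl-CoA. HIF2 shares the DNA core sequence with HIF1 but is known for a partly different set of targets. In the small intestine, glycolysis and lactate are prominent in crypt cells, while mature enterocytes carry a gluconeogenic and fructose-handling set of enzymes.

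Each sample held between 21722618 and 51119041 expected counts, and the members took 0.993 to 1.44% of them. Values are CPM (counts scaled to a common library size) scaled with TMM factors, listed in the order of samples 1, 3 and 4, with n = 3 per group. Ad-hHIF2 sample 1 had the highest TMM factor, 1.31 against 0.907 to 1.03 in the others, and satellite-like transcripts took 16% of the counts in Ad-hHIF1 sample 3 against at most 4.28% elsewhere. Mouse Epas1, which encodes HIF2, averaged 672.1 CPM in Ad-hHIF2 and 1.77 CPM in Ad-GFP. Hif1a averaged 309.0 CPM in Ad-hHIF1 and 219.7 CPM in Ad-GFP, a difference that did not pass the test (log2 fold change 0.49, adjusted p = 0.486, edgeR), although all Ad-hHIF1 samples were above all controls. It was called by DESeq2 (adjusted p = 5.76e-05) and in edgeR without a count filter. Whether reads of the human transgenes were counted under these mouse genes was not tested. Epithelial Krt8 was abundant at 1021.9 to 1357.6 CPM, while Epcam was low, at 2.45 to 3.80 CPM in Ad-GFP and 1.42 to 1.90 CPM in Ad-hHIF2 (log2 fold change -0.81, adjusted p = 0.0472, edgeR). Cdh1, which encodes E-cadherin, was higher with HIF2 (0.53, adjusted p = 0.00313, edgeR). The 5 stem cell markers summed to at most 2.0 CPM and the 8 enterocyte markers to at most 3.64 CPM in any sample. Vil1 and Cdx2, markers of intestinal epithelium, were at 3.27 to 4.94 and 6.55 to 8.99 CPM. The keratins of simple epithelium were thus high in every sample, and the defining markers of intestinal stem cells and enterocytes were at or near 0. The 8 epithelial markers summed to 3408.1 to 3736.1 CPM in Ad-hHIF2, 3307.2 to 3725.0 CPM in Ad-hHIF1 and 3220.3 to 3535.7 CPM in Ad-GFP. The enterocyte sum ran from 2.97 to 3.64 CPM in Ad-hHIF2 and from 0.75 to 1.12 CPM in Ad-GFP, the sum of 11 goblet, Paneth, enteroendocrine and tuft markers from 4.30 to 5.17 and from 6.93 to 11.3 CPM, and that of 8 fibroblast markers from 9.93 to 12.9 and from 12.1 to 18.4 CPM. The lower sum of goblet to tuft markers came mostly from Muc2, at 1.71 ± 0.267 CPM in Ad-hHIF2 and 5.86 ± 1.47 CPM in Ad-GFP (-1.77, adjusted p = 0.000882, edgeR). The higher enterocyte sum came mostly from Apoa4, at 2.22 to 2.80 CPM in Ad-hHIF2 and 0 to 0.0366 CPM in Ad-GFP, while Fabp2 was at 0.0323 to 0.275 and 0.350 to 0.637 CPM and the 7 markers other than Apoa4 averaged under 1 CPM in both groups. The 6 immune markers summed to 14.5 to 19.4 CPM in Ad-hHIF2, 8.78 to 11.3 CPM in Ad-hHIF1 and 11.3 to 15.8 CPM in Ad-GFP. Among them Csf1r was higher with HIF2, at 2.79 to 4.26 against 0.301 to 1.92 CPM, and Ptprc lower, at 0 to 0.0686 against 0.492 to 1.15 CPM. The 5 endothelial markers summed to at most 3.22 CPM in any sample. The part of these markers in the results was not tested.

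Per kilobase of effective length, which allows levels of different genes to be compared, the control organoids held mostly the later steps of the pathway. Gapdh, the glyceraldehyde-3-phosphate dehydrogenase, was at 4717 ± 772 CPM per kb (SD) in Ad-GFP, followed by the aldolase Aldoa at 1168.5 ± 38.0 and the pyruvate kinase Pkm at 929.3 ± 19.6. The next 6 were Ldha at 546.7 ± 50.8, Eno1 at 497.0 ± 113.3, the triose-phosphate isomerase Tpi1 at 438.1 ± 14.7, the phosphoglycerate kinase Pgk1 at 328.7 ± 26.1, the phosphoglycerate mutase Pgam1 at 305.6 ± 4.07 and the glucose-6-phosphate isomerase Gpi1 at 288.6 ± 8.13. In this order Ldha and Eno1, Eno1 and Tpi1, and Pgk1 and Pgam1 did not differ beyond their spread. The genes of entry and control stood lower, with Slc2a1 at 96.1 ± 2.78, Pfkl and Pfkp at 48.1 ± 2.50 and 47.8 ± 2.95, Hk1 and Hk2 at 33.6 ± 1.11 and 31.1 ± 3.01, and the second glucose transporter Slc2a3 at 0.206 ± 0.0883 CPM per kb. Not divided by length, these 9 genes made up 89.4 ± 0.325% of the members' CPM in Ad-GFP, and Gapdh alone 27.1 ± 2.38%.

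Almost all lactate dehydrogenase message was Ldha, the subunit that favours pyruvate-to-lactate conversion. Ldhb, the heart-type subunit, had 0, 9 and 1 counts in the Ad-GFP samples, 0, 0 and 2 in Ad-hHIF1 and 1, 0 and 11 in Ad-hHIF2, and it was the member too low to be tested. Slc2a1 likewise made up 99.8% of the summed TPM of Slc2a1 and Slc2a3 in Ad-GFP, Eno1 99.6% of Eno1 and Eno2, and Aldoa 97.7% of Aldoa and Aldoc. Hexokinase was shared more evenly, with Hk1 at 52.0 ± 2.61% and Hk2 at 48.0 ± 2.61%.

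Promoter sequence is shown for 5 members that changed under HIF2 and are described below, 3 that fell and 2 that rose, because HIF dimers recognise a short core. The sequences are the 250 bases before the RefSeq start on GRCm38.p6, on the strand of the gene. They lie at chr4:119108495-119108744 for Slc2a1 (plus strand), chr19:41911621-41911870 for Pgam1 (plus), chr4:150236458-150236707 for Eno1 (plus), chr11:95041372-95041621 for Pdk2 (minus) and chr7:34230337-34230586 for Gpi1 (minus). Eno1 has 3 RefSeq starts and Pdk2 has 2, and the first listed is shown. Capitals mark the core, ACGTG or GCGTG on either strand, read as CACGT or CACGC on the other. ACGTG also lies within CACGTG, the E-box of other factors, and that overlap was not separated.
Slc2a1: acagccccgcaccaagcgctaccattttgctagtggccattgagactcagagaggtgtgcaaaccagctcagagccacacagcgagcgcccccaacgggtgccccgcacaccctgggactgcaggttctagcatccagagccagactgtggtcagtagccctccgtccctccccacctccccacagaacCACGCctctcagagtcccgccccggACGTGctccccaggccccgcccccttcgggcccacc
Pgam1: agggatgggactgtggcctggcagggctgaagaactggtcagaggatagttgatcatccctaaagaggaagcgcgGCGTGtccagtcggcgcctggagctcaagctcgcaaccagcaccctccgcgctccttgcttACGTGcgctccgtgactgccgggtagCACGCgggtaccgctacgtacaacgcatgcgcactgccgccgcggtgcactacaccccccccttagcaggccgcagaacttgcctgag
Eno1: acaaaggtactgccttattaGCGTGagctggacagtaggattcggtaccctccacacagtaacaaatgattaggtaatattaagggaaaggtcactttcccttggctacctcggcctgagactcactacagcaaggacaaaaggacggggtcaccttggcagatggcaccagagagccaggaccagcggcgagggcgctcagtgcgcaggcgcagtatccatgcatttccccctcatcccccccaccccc
Pdk2: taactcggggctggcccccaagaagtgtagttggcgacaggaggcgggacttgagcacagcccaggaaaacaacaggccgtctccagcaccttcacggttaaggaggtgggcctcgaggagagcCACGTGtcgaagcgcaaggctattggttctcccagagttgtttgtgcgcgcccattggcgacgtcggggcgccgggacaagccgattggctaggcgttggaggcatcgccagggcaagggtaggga
Gpi1: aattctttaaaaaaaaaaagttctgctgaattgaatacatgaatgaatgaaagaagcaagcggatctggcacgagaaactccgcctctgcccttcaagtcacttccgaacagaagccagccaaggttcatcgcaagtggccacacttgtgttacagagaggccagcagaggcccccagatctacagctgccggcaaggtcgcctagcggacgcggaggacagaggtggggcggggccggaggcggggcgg
The Slc2a1 window held cores 61 and 36 bases before the start, the Pgam1 window 3 cores at 175, 114 and 88 bases, and the Eno1 window 1 core at 230 bases. The pair of matches in Pdk2, at 126 and 125 bases, is a single CACGTG read on both strands. Gpi1 had no match in these letters. In windows of 300 bases, from 250 before to 50 after each start, 28 of the 33 members with a RefSeq entry had a core in at least 1 window (84.8%), against 67.6% of the 9966 tested genes with an entry and 46.7% of all 27025 genes in the table. By direction under HIF2, a core was present in 11 of the 12 members with an entry that fell (91.7%), 3 of the 4 that rose (75%) and 13 of the 16 that passed in neither direction (81.2%). A match is a stretch of letters, and no binding was measured.

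The first comparison asks how HIF2 moved these genes against GFP. The members that changed were mostly lower. At an adjusted p below 0.05 in edgeR, 13 of the 33 tested members fell, where 13.6% of all 14987 genes tested fell, and 4 rose, where 15.9% of all genes rose. The genes that fell lie along the pathway, from glucose transporters (Slc2a1, Slc2a3) through hexokinase (Hk2), PFKFB3, aldolase, GAPDH, phosphoglycerate mutase and enolase to a lactate exporter (Slc16a3) and pyruvate dehydrogenase kinases (Pdk3, Pdk4). The risers were Gpi1, Pfkm, Pdk2 and the pyruvate carrier subunit Mpc1. With the 2-fold threshold added, 4 members fell (background 3.83%) and 0 rose (background 2.90%). The 4 became 2 without Ad-GFP sample 4 or Ad-hHIF2 sample 4 and in limma-voom, and 1 on total counts. Of all genes, 5.96%, 5.72%, 7.09% and 8.27% were then past 2-fold in either direction, against 6.73% as reported. The 4 that rose at adjusted p alone became 2 without Ad-GFP sample 1 or 3, where 12.4% and 11.2% of all genes rose. The median log2 fold change was -0.15 over the members and -0.01 over all genes. These are bulk samples, in which fewer cells of a type and less RNA per cell cannot be told apart. The scaling matters here. On total counts without TMM factors, which set the median of all genes at 0.24 and that of the members at 0.10, 4 members were called lower and 4 higher in place of 13 and 4, where 5.52% of all genes were lower and 23.3% higher. On log2(TPM + 1) and log2(TPM + 0.1) 0 members were called lower, where 1.31% and 1.40% of all genes were.

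**Figure D1:**
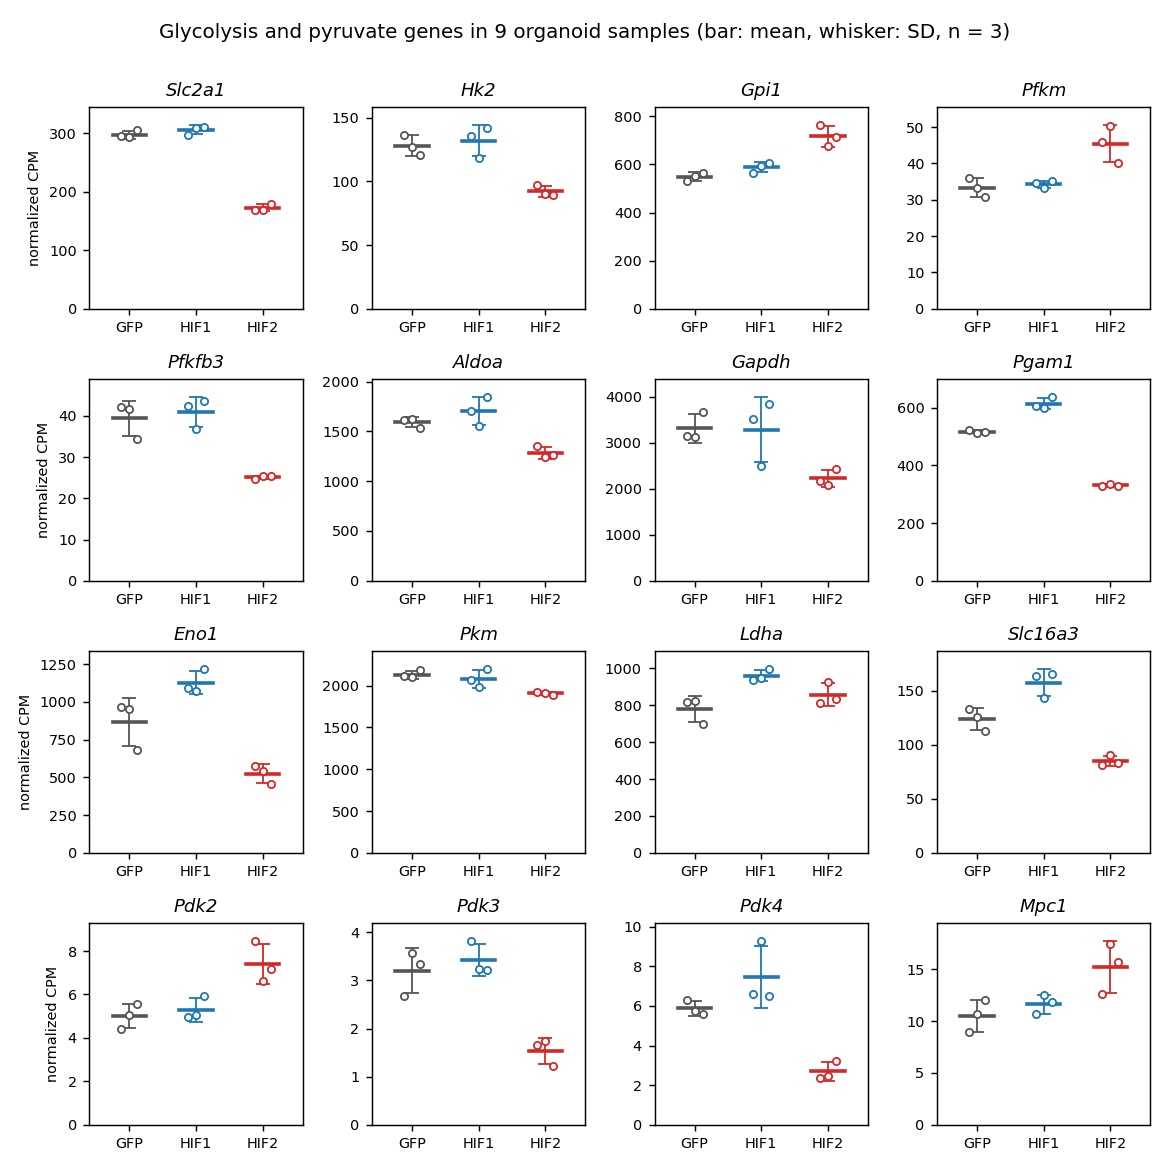
Normalized CPM (vertical axes, from 0) of 16 members in each of 9 samples, by adenovirus. Points are samples, bars are means and whiskers are SD (n = 3). Slc2a1 in Ad-hHIF2 sits at 169.5 to 179.5 CPM, below every Ad-GFP and Ad-hHIF1 sample, whereas Ldha overlaps between Ad-GFP and Ad-hHIF2.

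The glucose transporter genes both fell. Slc2a1, which encodes GLUT1, the basal glucose transporter, measured 294.9, 293.2 and 305.8 CPM in Ad-GFP and 169.6, 169.5 and 179.5 CPM in Ad-hHIF2. The groups were far apart relative to their spread, and the level was 1.72-fold lower (log2 fold change -0.78 ± 0.07 SE, adjusted p = 0.000141, edgeR). Slc2a3, which encodes the high-affinity transporter GLUT3, was barely expressed, at 1.47, 0.631 and 1.67 CPM in Ad-GFP against 0.278, 0.555 and 0.264 CPM in Ad-hHIF2, from 8 to 54 counts per sample. Its fitted fall was -1.74 ± 0.51 (adjusted p = 0.0331, edgeR), with the lowest control just above the highest HIF2 sample. That call was lost without Ad-GFP sample 1 or 4 or Ad-hHIF2 sample 1 or 4, at adjusted p up to 0.117. Summed per kilobase, the pair went from 96.3 ± 2.85 in Ad-GFP to 55.9 ± 1.91 CPM per kb in Ad-hHIF2.

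Of the hexokinases, which trap glucose as glucose-6-phosphate, Hk2 fell and Hk1 did not pass the test. Hk2 stood at 136.7, 126.8 and 120.9 CPM in Ad-GFP and at 97.3, 90.0 and 89.0 CPM in Ad-hHIF2, with no overlap (log2 fold change -0.47 ± 0.08, adjusted p = 0.00249, edgeR). Hk1 averaged 124.7 ± 4.70 CPM in Ad-GFP and 109.3 ± 7.92 CPM in Ad-hHIF2 (adjusted p = 0.109, edgeR). The next enzyme went the other way. Gpi1, which interconverts glucose-6-phosphate and fructose-6-phosphate, rose from 530.6, 551.7 and 565.4 CPM to 762.4, 676.9 and 713.0 CPM, all Ad-hHIF2 samples above all controls (0.39 ± 0.08, adjusted p = 0.00778, edgeR). Its promoter window held no core, and neither did that of Eno2, which fell. The other risers, Pfkm, Pdk2 and Mpc1, had a core in some window. The relation of cores to the direction of change was not tested.

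Phosphofructokinase, the committed step, shifted in the make-up of its message, while the summed level differed by less than the spread between replicates. Pfkm, the muscle-type subunit, measured 35.9, 33.3 and 30.7 CPM in Ad-GFP and 46.0, 50.2 and 40.1 CPM in Ad-hHIF2 (0.45 ± 0.10, adjusted p = 0.00938, edgeR). Pfkl and Pfkp, the liver and platelet types, did not pass, with log2 fold changes of -0.16 ± 0.09 and 0.01 ± 0.09. The summed level was 108.3 ± 1.91 CPM per kb in Ad-GFP and 103.4 ± 6.04 in Ad-hHIF2, and the share of Pfkm in the summed TPM was 11.4 ± 0.916% and 16.2 ± 0.961%. Among the PFKFB genes, Pfkfb3, whose enzyme mainly makes the phosphofructokinase activator fructose-2,6-bisphosphate, measured 42.1, 41.7 and 34.4 CPM in Ad-GFP and 24.7, 25.4 and 25.3 CPM in Ad-hHIF2. It fell with tight HIF2 replicates and no overlap (-0.65 ± 0.09, adjusted p = 0.000905, edgeR). Pfkfb2, at 7.47 ± 0.655 and 7.30 ± 0.420 CPM, Pfkfb4, at 3.92 ± 0.618 and 3.57 ± 0.223 CPM, and Pfkfb1, at 0.655 ± 0.192 and 0.987 ± 0.329 CPM in Ad-GFP and Ad-hHIF2, did not pass. Pfkfb3 thereby held 70.8 ± 2.39% of the family's TPM in Ad-GFP and 58.2 ± 4.14% in Ad-hHIF2.

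Aldoa and Aldoc, aldolases that split fructose-1,6-bisphosphate, fell. Aldoa measured 1615.2, 1624.7 and 1537.6 CPM in Ad-GFP and 1354.6, 1243.4 and 1262.2 CPM in Ad-hHIF2, the smallest called change of the set (-0.30 ± 0.08, adjusted p = 0.0213, edgeR). Without Ad-GFP sample 1 or 3, or Ad-hHIF2 sample 3 or 4, its adjusted p rose to at most 0.0860, and on both TPM scales its log2 fold change was 0.14. The less abundant Aldoc averaged 34.2 ± 2.01 CPM in Ad-GFP and 22.6 ± 0.486 CPM in Ad-hHIF2 (-0.60 ± 0.07, adjusted p = 0.000422, edgeR). Tpi1, at 630.6 ± 21.2 and 596.6 ± 11.9 CPM, did not pass, although its groups did not overlap.

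The payoff steps were split. Gapdh fell from 3145.4, 3119.6 and 3670.8 CPM to 2168.0, 2078.7 and 2438.6 CPM (-0.57 ± 0.11, adjusted p = 0.0050, edgeR). Pgam1, the mutase that turns 3-phosphoglycerate into 2-phosphoglycerate, the substrate of enolase, fell from 524.3, 511.9 and 516.1 CPM to 329.1, 334.9 and 327.4 CPM (-0.64 ± 0.07, adjusted p = 0.000360, edgeR). In both genes every Ad-hHIF2 sample was below every control. The ATP-yielding Pgk1, at 553.0 ± 43.2 CPM in Ad-GFP and 497.1 ± 45.7 CPM in Ad-hHIF2, and the bisphosphoglycerate mutase Bpgm, at 10.7 ± 1.52 and 10.1 ± 1.13 CPM, overlapped between groups and did not pass.

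Both enolase members, Eno1 and Eno2, whose enzymes make phosphoenolpyruvate, fell. Eno1, the ubiquitous form, measured 967.3, 954.3 and 684.5 CPM in Ad-GFP and 577.1, 543.6 and 454.6 CPM in Ad-hHIF2, where control sample 4 lay well under the other two controls but still above all HIF2 samples (-0.72 ± 0.15, adjusted p = 0.00693, edgeR). Eno1b, a near copy of Eno1 whose reads can be split with it, read 0, 15.7 and 83.3 CPM in Ad-GFP and 0, 0 and 7.84 CPM in Ad-hHIF2. With the pair summed the fall was -0.77 (adjusted p = 0.00200, edgeR). Eno2, the neuronal form, measured 3.61, 4.35 and 2.85 CPM in Ad-GFP and 1.46, 1.63 and 1.75 CPM in Ad-hHIF2, and it passed the 2-fold threshold (-1.16 ± 0.23, adjusted p = 0.00657, edgeR). Eno3, the muscle form and not among the 34 genes, stood above Eno2 and fell as well, from 17.0 ± 1.84 to 11.3 ± 0.248 CPM (-0.59 ± 0.10, adjusted p = 0.00294, edgeR). Pkm, the pyruvate kinase of proliferating and muscle cells, read 2110.3, 2099.5 and 2185.3 CPM in Ad-GFP and 1922.8, 1915.0 and 1890.7 CPM in Ad-hHIF2. Its groups did not overlap, yet the difference of -0.15 ± 0.08 did not pass (adjusted p = 0.173, edgeR). Over the members, 17 had all HIF2 samples below all controls (22.4% of all genes) and 5 had all above (23.4%).

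**Figure D2:**
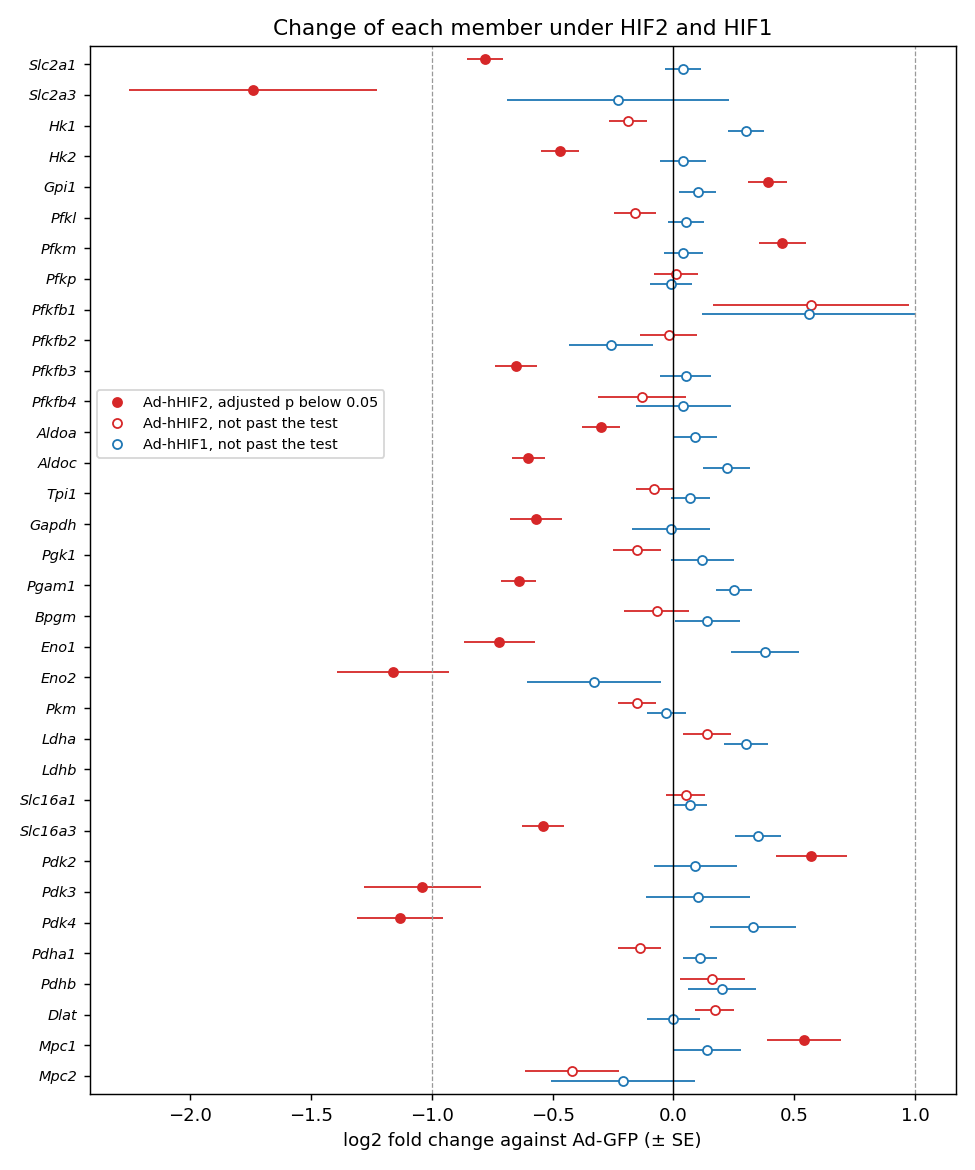
Log2 fold change ± SE of 33 tested members against Ad-GFP (horizontal axis), in pathway order, under Ad-hHIF2 (red) and Ad-hHIF1 (blue). Filled points passed an adjusted p of 0.05 and dashed lines mark 2-fold. Filled red points lie from -1.74 to 0.57, and no blue point is filled. Ldhb has no point because it was not tested.

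Of the lactate genes, the exporter gene Slc16a3 fell, while the dehydrogenase gene Ldha and the second transporter gene Slc16a1 did not pass. Only message was measured. Ldha measured 819.8, 824.0 and 696.5 CPM in Ad-GFP and 813.2, 929.1 and 833.9 CPM in Ad-hHIF2, with overlapping groups (0.14 ± 0.10, adjusted p = 0.313, edgeR). Slc16a3, which encodes MCT4, the lactate exporter of glycolytic cells, measured 133.5, 125.7 and 112.8 CPM against 81.5, 90.2 and 82.8 CPM, without overlap (-0.54 ± 0.09, adjusted p = 0.00224, edgeR). Slc16a1, which encodes MCT1, was at 51.5 ± 1.78 and 53.2 ± 4.73 CPM and did not pass. The share of Slc16a3 in the TPM of the pair was 80.3 ± 1.0% in Ad-GFP and 74.2 ± 1.08% in Ad-hHIF2, although on log2(TPM + 1) its own fold change against Ad-GFP was 0.01.

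The 3 pyruvate dehydrogenase kinase members moved in both directions. Pdk4, the starvation-responsive kinase, fell from 6.30, 5.73 and 5.61 CPM to 2.38, 2.48 and 3.24 CPM (-1.13 ± 0.18, adjusted p = 0.00208, edgeR). Pdk3 fell from 2.68, 3.58 and 3.35 CPM to 1.65, 1.75 and 1.23 CPM (-1.04 ± 0.24, adjusted p = 0.0129, edgeR). Pdk2 rose from 4.43, 5.07 and 5.55 CPM to 8.44, 6.61 and 7.15 CPM (0.57 ± 0.15, adjusted p = 0.0194, edgeR). All are low genes with separated groups. The calls of Pdk3 (without Ad-GFP sample 3, adjusted p = 0.0549, edgeR) and Pdk2 (without Ad-GFP sample 1 or 3 or Ad-hHIF2 sample 1, at most 0.0732) rest on single samples. Most kinase message came from Pdk1, a further kinase outside the 34 genes and named after its values were seen, with 79.8 ± 3.83% of the family's TPM in Ad-GFP. It measured 116.7, 119.2 and 112.9 CPM in Ad-GFP and 72.6, 76.0 and 72.8 CPM in Ad-hHIF2 (-0.65 ± 0.07, adjusted p = 0.000235, edgeR). Pdk2 made up 7.91 ± 0.804% of kinase TPM in Ad-GFP and 17.3 ± 2.21% in Ad-hHIF2 (3.85 ± 0.479 and 8.67 ± 1.17% of their expected counts, which are not scaled by length), and the 4 kinases summed to 33.2 ± 1.71 and 21.3 ± 0.50 CPM per kb.

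The 3 members that encode subunits of the pyruvate dehydrogenase complex, the target of these kinases, did not pass the test. Pdha1, the phosphorylated E1 alpha subunit, read 64.3, 65.8 and 58.2 CPM in Ad-GFP and 60.6, 59.8 and 50.4 CPM in Ad-hHIF2 (-0.14 ± 0.09, adjusted p = 0.284, edgeR). Pdhb, the E1 beta subunit, averaged 18.7 ± 3.77 and 21.0 ± 0.991 CPM, and Dlat, the E2 subunit, 18.3 ± 0.596 and 20.4 ± 1.63 CPM, and neither passed. Outside the 34 genes, the E3 subunit Dld rose (0.45 ± 0.09, adjusted p = 0.00606, edgeR), a call not made on either TPM scale. The E3-binding subunit Pdhx did not pass (-0.01 ± 0.12, adjusted p = 0.955, edgeR). Mpc1, which with Mpc2 carries pyruvate into mitochondria, rose from 8.91, 10.7 and 12.0 CPM to 12.6, 17.4 and 15.7 CPM (0.54 ± 0.16, adjusted p = 0.0298, edgeR). Its lowest HIF2 sample was just above its highest control, and the call was lost without Ad-GFP sample 1 or 3 or Ad-hHIF2 sample 3 or 4 (adjusted p at most 0.105, edgeR). Mpc2 stood at 5.37 ± 1.32 and 3.96 ± 0.225 CPM and did not pass (-0.42 ± 0.20, adjusted p = 0.141, edgeR).

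**Figure D3:**
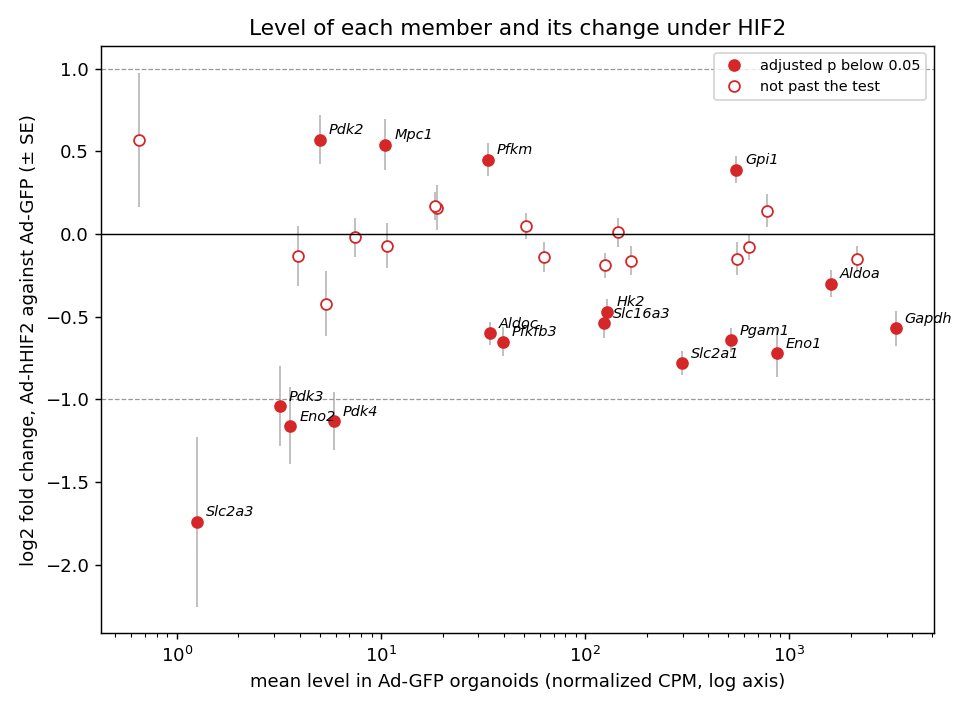
Mean level of each tested member in Ad-GFP (horizontal log axis, normalized CPM) against its log2 fold change ± SE in Ad-hHIF2 (vertical axis), with filled points past an adjusted p of 0.05 and dashed lines at 2-fold. The 4 members beyond the lower line had 1.26 to 5.88 CPM in Ad-GFP.

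The 4 members past 2-fold, Slc2a3, Eno2, Pdk3 and Pdk4, averaged 1.26 to 5.88 CPM in Ad-GFP, and the 9 others that fell averaged 34.2 to 3311.9 CPM and fell by 1.23-fold to 1.72-fold. Other low members did not move this way, with Pfkfb2, Pfkfb4, Bpgm and Mpc2, at 3.92 to 10.7 CPM in Ad-GFP, not past the test and Pdk2, at 5.02 CPM, higher. The relation of change to level was not tested. Summed over the 34 genes, the samples held 12267.0, 12130.9 and 12316.0 CPM in Ad-GFP and 10072.6, 9959.7 and 9978.8 CPM in Ad-hHIF2. That gap holds with TMM factors. As a share of all counts the members took 1.13, 1.14 and 1.13% in Ad-GFP and 1.32, 0.993 and 1.02% in Ad-hHIF2, where sample 1, with the highest TMM factor, lay above every control.

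The second comparison asks whether HIF1, the form classically tied to these genes, raised them in the same organoids. No member passed an adjusted p of 0.05 in edgeR, and neither did any of the 15233 genes tested (0%). The estimated variation between replicates, as a coefficient over all genes, was 0.240 here and 0.165 for HIF2 against Ad-GFP. Counts of calls in the HIF arms are therefore not alike in power. The paper reports genes changed by HIF1 from its own test, EBSeq. The members' log2 fold changes ran from -0.33 to 0.56, with a smallest adjusted p of 0.486, and their median was 0.09 against 0.00 for all genes. At an unadjusted p below 0.05, 5 members were higher (background 4.06%) and 0 lower (background 4.53%) in edgeR. DESeq2 called these 5, Hk1, Pgam1, Eno1, Ldha and Slc16a3, at an adjusted p between 0.00424 and 0.0381 (0.446% of all genes were called higher by DESeq2), none at 2-fold, and limma-voom called 0 members. The same Ad-GFP samples serve as controls in both comparisons.

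Slc16a3 measured 163.4, 143.4 and 165.9 CPM in Ad-hHIF1, each above the controls' highest value of 133.5 CPM (0.35 ± 0.10, adjusted p = 0.491, edgeR). Ldha measured 937.4, 948.3 and 994.7 CPM, again above every control (0.30 ± 0.09, adjusted p = 0.501, edgeR). Pgam1 measured 606.8, 598.1 and 635.7 CPM (0.25 ± 0.07, adjusted p = 0.501, edgeR). These 3 belong to 8 members whose Ad-hHIF1 samples all exceeded all controls (background 8.37%), with Hk1, Gpi1, Eno1, Pdk4 and Pdha1, and 0 members lay wholly below (background 9.02%). Hk1 measured 149.3, 154.4 and 158.4 CPM (0.30 ± 0.07, adjusted p = 0.486, edgeR), and Eno1 1094.8, 1073.6 and 1215.4 CPM (0.38 ± 0.14, adjusted p = 0.548, edgeR). Slc2a1, at 297.8, 310.1 and 311.4 CPM, overlapped with the controls, with a difference of 0.04 ± 0.07. Gapdh spread from 2484.9 CPM in sample 3, the library with the high satellite share, to 3838.8 CPM in sample 4.

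The third comparison sets Ad-hHIF2 against Ad-hHIF1 directly, over all 9 samples, which tests the difference between the HIF arms. Against Ad-GFP, Epas1 was 388.4-fold higher in Ad-hHIF2 and Hif1a 1.41-fold higher in Ad-hHIF1, the latter not past the test. The kind of factor and its amount can therefore not be told apart here. At an adjusted p below 0.05 in edgeR, 14 of 33 members were lower with HIF2, where 12.0% of 15556 genes were lower, and 3 were higher, where 13.7% were higher. With the 2-fold threshold, 4 were lower (background 3.70%) and 0 higher (background 2.42%). Of the members, 19 lay wholly below in Ad-hHIF2 (19.1% of all genes) and 4 wholly above (22.7%). Leaving out 1 sample gave 1 to 3 higher, with 1 without Ad-hHIF2 sample 3 or Ad-hHIF1 sample 1, where 9.33% and 9.77% of all genes were higher. On total counts, 8 were lower and 3 higher, against 5.17% and 13.5% of all genes. On log2(TPM + 1) and log2(TPM + 0.1) 0 members were called, where 2.36% and 2.96% of all genes were.

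Enolase showed the widest gap among abundant members. Eno1 averaged 1127.9 ± 76.5 CPM in Ad-hHIF1 and 525.1 ± 63.3 CPM in Ad-hHIF2, 2.15-fold lower (log2 fold change -1.10 ± 0.14, adjusted p = 0.000324, edgeR). Pgam1 averaged 613.5 ± 19.7 and 330.5 ± 3.94 CPM (-0.89 ± 0.07, adjusted p = 7.77e-06, edgeR), and Slc16a3 157.5 ± 12.3 and 84.8 ± 4.69 CPM (-0.89 ± 0.09, adjusted p = 6.44e-05, edgeR). For these genes the HIF1 samples were the highest of the 9 and the HIF2 samples the lowest. Slc2a1 differed by -0.83 ± 0.07 (adjusted p = 1.41e-05, edgeR) and Hk1, which had not passed against Ad-GFP in either arm, by -0.49 ± 0.07 (adjusted p = 0.000900, edgeR).

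The low members past 2-fold were Pdk4, with 6.59, 9.25 and 6.48 CPM in Ad-hHIF1 (-1.46 ± 0.19, adjusted p = 0.000341, edgeR), Pdk3, with 3.81, 3.24 and 3.22 CPM (-1.14 ± 0.23, adjusted p = 0.00420, edgeR), and Slc2a3, with 1.05, 1.26 and 0.863 CPM (-1.52 ± 0.49, adjusted p = 0.0438, edgeR). All 3 were above every Ad-hHIF2 sample. Hk2, Pfkfb3, Aldoa, Aldoc, Gapdh and Eno2 were also lower with HIF2, by -0.40 to -0.83 on the log2 scale. Gpi1 (0.29 ± 0.08), Pfkm (0.40 ± 0.09) and Pdk2 (0.48 ± 0.15) were higher. Some calls were lost when 1 sample was left out, with the largest adjusted p from edgeR given for each. Of all genes, 25.8% were called as reported and 15.8 to 26.6% with 1 sample left out. Pdk2 was lost in every case except without Ad-GFP sample 4 or Ad-hHIF1 sample 4 (0.163). Slc2a3 was lost without Ad-GFP sample 1, Ad-hHIF2 sample 1 or 4, or any Ad-hHIF1 sample (0.148), and Eno2 without Ad-GFP sample 1, any Ad-hHIF2 sample, or Ad-hHIF1 sample 1 or 3 (0.131). Gapdh was lost without Ad-hHIF2 sample 1 or 3 or Ad-hHIF1 sample 1 or 4 (0.0718), Gpi1 without sample 1 of either HIF arm (0.0915) and Pfkm without Ad-hHIF2 sample 3 (0.0555). Calls were gained by Pfkl without Ad-hHIF2 sample 3 (0.0319), Mpc1 without Ad-hHIF2 sample 1 (0.0318), Pgk1 without Ad-hHIF1 sample 3 (0.0165) and Pdha1 without Ad-GFP sample 4 (0.0353). In a fit of only the 6 HIF samples, Eno2 and Pdk2 were not called and Pdha1 was called lower. Ldha did not pass, at -0.16 ± 0.09 (adjusted p = 0.229, edgeR), nor did Pkm, Tpi1 or Pgk1 in edgeR. DESeq2 called 18 members lower, with Pfkl, Tpi1, Pgk1 and Pdha1 added at adjusted p from 0.0172 to 0.0438, where 14.6% of all genes were called lower.

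**Figure D4:**
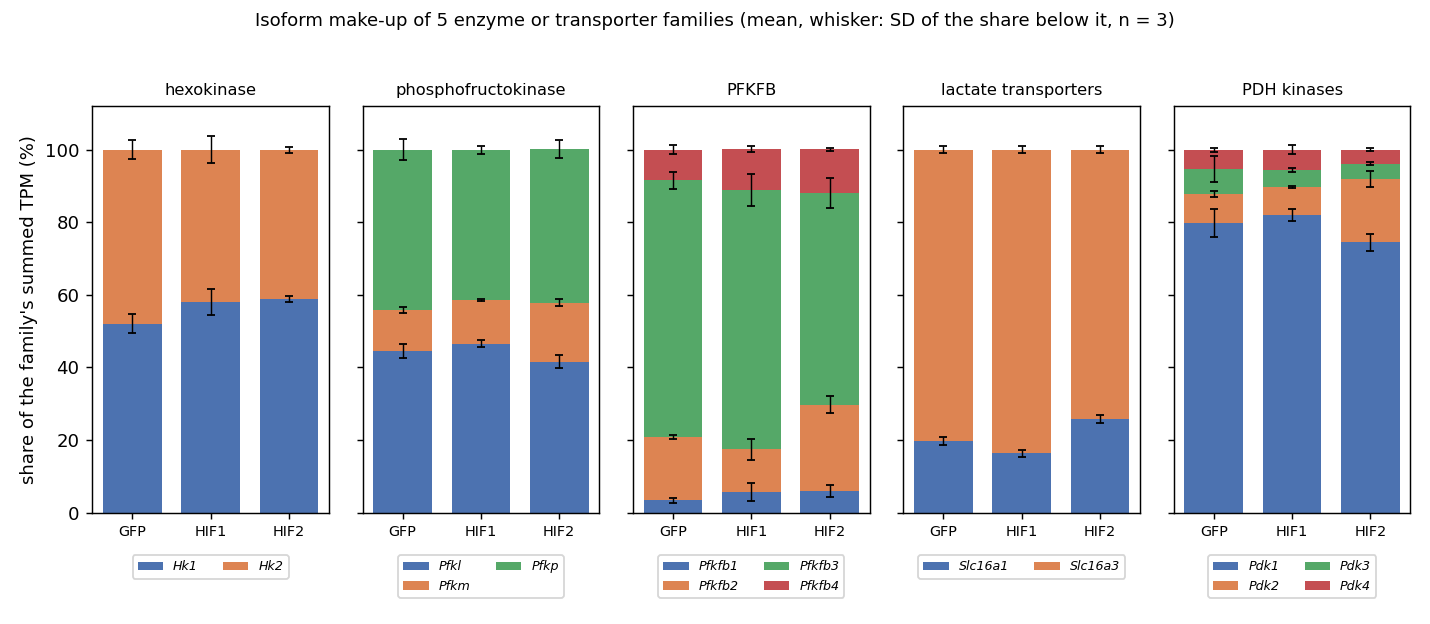
Share of each gene in the summed TPM of its family (vertical axis, %), for 5 families and 3 adenoviruses, as means with the SD of each share as whiskers (n = 3). Pfkfb3 goes from 70.8% in Ad-GFP to 58.2% in Ad-hHIF2, and Pdk2 from 7.91% to 17.3%.

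Isoform make-up, taken as the share of a family's TPM within each sample, can be compared without a scaling between samples. With 3 against 3 samples the two-sided exact permutation test cannot go below 0.10. The share of Slc16a3 was 83.7 ± 0.989% in Ad-hHIF1 against 74.2 ± 1.08% in Ad-hHIF2, and Pfkfb3 held 71.4 ± 4.42% against 58.2 ± 4.14%, each at the smallest p the exact test allows, 0.10. Hk1 held 57.9 ± 3.60% of hexokinase in Ad-hHIF1 and 58.8 ± 0.817% in Ad-hHIF2, which overlapped (exact permutation p = 0.80). Both exceeded the 52.0 ± 2.61% of Ad-GFP (exact permutation p = 0.10 each).

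A wider list of 56 genes around the pathway was read in the same fits. Under HIF2 against Ad-GFP, 32 were tested, of which 8 rose and 3 fell at an adjusted p below 0.05, where 15.9% and 13.6% of all genes did. The 8 were Galm, Pcx, Ldhd, Bsg, Me1, Me2, Dld and Pdp1, and the 3 were Eno3, Pdk1 and Pdp2. At 2-fold 1 was higher and 0 lower (background 2.90% and 3.83%). That gene was Pcx, the pyruvate carboxylase that feeds pyruvate into oxaloacetate, with 15.3, 14.7 and 14.9 CPM in Ad-GFP, 15.9, 12.3 and 17.2 CPM in Ad-hHIF1 and 32.4, 29.3 and 29.5 CPM in Ad-hHIF2. It was 1.02 ± 0.07 higher on the log2 scale than Ad-GFP (adjusted p = 3.10e-05, edgeR) and 1.0 ± 0.11 higher than Ad-hHIF1 (adjusted p = 0.000133, edgeR). Against Ad-hHIF1 the call was lost on log2(TPM + 1) (adjusted p = 0.0819, limma). The 3 falls were not called on total counts or TPM. That of Pdp2 was also not called in DESeq2, limma-voom or the replicate block. Nor was it called without a count filter, with all 9 samples in the fit, or with any 1 sample left out. On both TPM scales 5 rises were called, without Ldhd, Dld and Pdp1, where 5.43% and 6.00% of all genes rose. Under HIF1 0 of 32 passed in edgeR, and DESeq2 called 2 higher, Me1 and Pdk1 (0.29, adjusted p = 0.00439 for Pdk1). Of HIF2 against HIF1, 34 were tested, 6 were higher (background 13.7%) and 4 lower (background 12.0%). On total counts 5 were higher and 1 lower, where 13.5% and 5.17% of all genes were. On log2(TPM + 1) 0 were called, and on log2(TPM + 0.1) 1 was higher and 0 lower, where 2.36% and 2.96% of all genes were called. Sugar transporters of the absorptive enterocyte were near 0 throughout, with Slc5a1 (SGLT1) at most 0.263 CPM, Slc2a2 (GLUT2) at most 0.482 CPM and Slc2a5 (GLUT5) at most 0.495 CPM in any sample.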

How the data were processed

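Genes were quantified by the authors with RSEM after quality filtering of reads. The version, aligner, build and annotation are not given in the sources used here. The deposited expected counts are RSEM's estimates per gene, not normalized, and 85.7% are whole, to within 0.005. The deposited TPM are the authors' length-scaled values, used for isoform shares and as alternatives, and the deposited effective lengths gave CPM per kb. Expected counts were rounded and tested in edgeR 4.0.16 (R 4.3.3, limma 3.58.1) with filterByExpr, TMM factors and the quasi-likelihood test, with Benjamini-Hochberg adjustment over all genes tested. Comparisons with Ad-GFP used the 6 samples concerned, and that of HIF2 with HIF1 used all 9. A call needed an adjusted p below 0.05, and 2-fold where stated. The authors' own test, EBSeq, was not run. SE is the log2 fold change over the root of the F statistic. The fits against Ad-GFP were also tested on simulated data.

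The members, the wider list and the marker lists were chosen with earlier results of these data known. Every member is named. Per-sample values are given for members past both thresholds in any comparison and for others of each step. Of the wider list they are given for Pcx, past both thresholds, and for Pdk1, Me1 and Bsg, which passed adjusted p alone. Positions came from GENCODE M21 (GRCm38) and promoter windows from RefSeq, whose starts can differ from those used in quantification. Slc2a3 had no promoter entry. The alternatives changed the filter (none, or a minimum of 10 counts per sample), the scaling (total counts or median ratios), the test (DESeq2 1.42.0, limma-voom, or limma on TPM with a pseudocount of 1 or 0.1), or added a replicate block, another choice of samples, an adjusted p below 0.01, Eno1 with Eno1b, and each sample left out in turn. Shares were also taken from expected counts. Figures were drawn with Python 3.11.15 and matplotlib 3.10.9.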

Additional observations from a re-analysis of the deposited data

How the results depend on the processing

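Under no count filter, a stricter filter, median-ratio size factors, DESeq2 and a fit of all 9 samples, the counts of members called with HIF2 against Ad-GFP stayed within 1.5 times those reported. Total counts lowered the members called past 2-fold from 4 to 1 and those lower at adjusted p alone from 13 to 4, limma-voom gave 2 past 2-fold, and an adjusted p below 0.01 gave 2 past 2-fold and 2 higher. On log2(TPM + 1), 0 were past 2-fold, 0 lower and 1 higher, and on log2(TPM + 0.1) 1 was past 2-fold, higher, with 0 lower and 1 higher at adjusted p alone. Over all genes, the share past 2-fold was 6.73% as reported, 8.27% on total counts, 7.09% in limma-voom, and 1.58% and 5.14% on the TPM scales. No share of all genes is given for an adjusted p below 0.01. The share called at adjusted p alone was 29.5% as reported, 28.8% on total counts, and 6.74% and 7.40% on the TPM scales. There the log2 fold change of Aldoa was 0.14 on both scales and that of Slc16a3 0.01 on log2(TPM + 1), where the median of all genes was 0.12 and 0.30. The cause was not tested. With HIF1 against Ad-GFP, DESeq2 called 5 members higher in place of 0, and over all genes it called 144 at adjusted p alone, limma-voom 5, the fit without a count filter 384 and the fit of all 9 samples 7. For HIF2 against HIF1, total counts gave 1 past 2-fold in place of 4 and 8 lower in place of 14, both TPM scales gave 0 called, 0 lower and 0 higher (of all genes, 25.8% as reported, 18.6% on total counts, and 2.36% and 2.96% on TPM), and an adjusted p below 0.01 gave 1 higher in place of 3. Leaving out 1 sample gave 2 to 4 members past 2-fold, 2 to 4 higher and 11 to 12 lower for HIF2 against Ad-GFP, with 2 past 2-fold without Ad-GFP sample 4 or Ad-hHIF2 sample 4 and 2 higher without Ad-GFP sample 1 or 3. Of all genes, 4.99 to 6.39% were then past 2-fold, 11.1 to 16.3% higher and 8.42 to 12.7% lower. The same step gave 0 for HIF1, of members and of all genes. For HIF2 against HIF1 it gave 3 to 4 members past 2-fold, 1 to 3 higher and 11 to 15 lower, with 1 higher without Ad-hHIF2 sample 3 or Ad-hHIF1 sample 1. Of all genes, 3.56 to 7.13% were then past 2-fold, 9.02 to 13.9% higher and 6.75 to 12.8% lower.

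Deviations of samples with the same number correlated at 0.064 to 0.114 (HIF2 and GFP), -0.078 to 0.083 (HIF1 and GFP) and -0.178 to -0.061 (HIF2 and HIF1), so the numbers were not taken as pairs. With the replicate block, 12 members were lower and 4 higher for HIF2 against Ad-GFP, 0 for HIF1, and 13 lower and 3 higher for HIF2 against HIF1. Of all genes, 14.2% were lower and 16.7% higher for HIF2 against Ad-GFP, 0% for HIF1, and 10.5% and 12.9% for HIF2 against HIF1. The call of Slc2a3 against Ad-GFP was not made under the block, nor were those of Slc2a3, Eno2 and Pdk2 against HIF1, where Pdha1 (lower) and Mpc1 (higher) were called. Taken from expected counts in place of TPM, 48 of 78 isoform shares moved by more than their SD between replicates. Expected counts are not scaled by length, so such shares differ wherever the genes of a family differ in length. That move therefore does not test the differences between groups. Only 16 members had whole-number counts in every sample, so the counts of the others rest on how RSEM shared reads. Precision is limited by 3 samples per group and, for Slc2a3, by 8 to 54 counts.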

Other observations

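Genes that handle pyruvate outside the members were also read, and they are named after their values were seen. Me1, the cytosolic malic enzyme that makes pyruvate and NADPH, measured 126.1, 134.6 and 142.2 CPM in Ad-GFP, 162.9, 163.1 and 154.3 CPM in Ad-hHIF1 and 200.8, 183.0 and 198.7 CPM in Ad-hHIF2. It rose with HIF2 against Ad-GFP (log2 fold change 0.54 ± 0.08, adjusted p = 0.00158, edgeR) and did not pass with HIF1 (0.25 ± 0.08, adjusted p = 0.501, edgeR). Its mitochondrial counterpart Me2 rose by 0.88 ± 0.08 with HIF2 (adjusted p = 0.000123, edgeR), from 16.8 ± 0.950 to 30.8 ± 2.10 CPM. Bsg, the chaperone that MCT1 and MCT4 need to reach the cell surface, rose from 1381.6, 1352.7 and 1347.0 CPM in Ad-GFP to 2057.6, 2175.9 and 2075.2 CPM in Ad-hHIF2 (0.63 ± 0.08, adjusted p = 0.000630, edgeR), where Slc16a3 had fallen. Pdp1, a phosphatase that reactivates pyruvate dehydrogenase, rose from 13.7 ± 0.540 to 21.8 ± 2.12 CPM (0.67 ± 0.09, adjusted p = 0.000949, edgeR). The other such phosphatase, Pdp2, fell from 7.61 ± 0.540 to 5.81 ± 0.279 CPM (-0.38 ± 0.12, adjusted p = 0.0422, edgeR). DESeq2 and limma-voom did not make that call, nor did either TPM scale. In edgeR it was lost with any 1 sample left out, the replicate block, no count filter, total counts or all 9 samples in the fit. The E3 subunit Dld rose from 31.7 ± 2.34 to 43.2 ± 4.17 CPM (0.45 ± 0.09, adjusted p = 0.00606, edgeR). The rises of Pdp1 and Dld were not called on either TPM scale. All Ad-hHIF2 samples were above all Ad-GFP samples for Me1, Me2, Bsg, Pdp1 and Dld and below them for Pdp2.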
